A study of Mus musculus with 9 samples.

Results

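The small leucine-rich proteoglycans are a family of secreted matrix proteins, and 9 of their genes, Fmod, Lum, Dcn, Bgn, Ogn, Aspn, Prelp, Omd and Kera, were followed here among 18193 genes measured in mouse cardiomyocytes made from embryonic stem cells. The 9 genes were chosen by name, with their day 30 minus day 10 signals in these arrays already known, so levels and differences between days are given for them as a description, with no test. Only the difference between their later and their earlier change was tested, gene by gene. All of their probe sets were taken, 20 in number, with 6 for Fmod, 3 for Bgn, 2 each for Dcn, Ogn, Aspn and Prelp, and 1 each for Lum, Omd and Kera. The groups were cultures kept for 10, 20 or 30 days after the start of differentiation, each age being represented by 3 arrays. In every group the cells were of the synp line, made from R1 embryonic stem cells on a 129X1 x 129S1 background, which carries the puromycin resistance gene PAC under the promoter of Ncx1, the sodium-calcium exchanger gene now called Slc8a1. The cytokines used to direct all cultures were FGF10, bFGF, VEGF, BMP4 and Activin A, with puromycin present from day 7. The cells are thus 1 engineered line, selected by 1 promoter, and any cell able to use that promoter could survive. The labels do not say whether replicates came from separate differentiations, so p-values refer only to the spread among these arrays, part of which may be technical.

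Small leucine-rich proteoglycans consist of a curved stack of leucine-rich repeats that lies along collagen fibrils, and most carry glycosaminoglycan chains or other sugars. They set how thick fibrils become and how far apart they lie, and several also bind growth factors such as TGF-beta. Class I holds Dcn, Bgn and Aspn, class II holds Fmod, Lum, Prelp, Omd and Kera, and class III holds Ogn. In the heart these proteins belong to the connective tissue matrix, which fibroblasts and valve cells mainly make.

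The arrays gave 1 log2 signal per probe set, with values between 2.77 and 14.52 and array medians between 5.48 and 5.56. Where a gene had several probe sets, the one brightest on average stands for it, and signals of different genes are not set against each other, because probes differ in brightness. The cardiomyocyte label was checked with 12 markers, whose mean log2 signal lay between 10.6 and 11.5 on the day 10 arrays, 11.5 and 11.8 at day 20, and 11.7 and 11.8 at day 30. The sarcomere gene Myh6 averaged 13.50 at day 30 and 13.09 at day 10, a difference of 0.41 (adjusted p = 0.172) that passed the test, among single omissions, only without day 10 replicate 3 (adjusted p = 0.026). The troponin gene Tnni3 and the calcium pump regulator Pln rose, by 2.85 (adjusted p = 0.000878) and 2.8 (adjusted p = 0.00765). The other 10 markers did not pass the test, among them Nkx2-5 with -0.46 (adjusted p = 0.191). Of all genes, 11.2% rose and 9.92% fell between these days. One array stood apart in its control probes: day 30 replicate 2 had an 18S ribosomal RNA signal of 10.27, against 12.07 to 13.44 on the other 8 arrays, and the highest 3 prime minus 5 prime beta-actin difference, 0.79.

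Of the 9 genes, 8 had higher signals on every day 30 array than on any day 10 array and differed by at least 2-fold, a pattern that 6.61% of all genes showed. By day 20, 7 genes already lay above day 10 in this way (4.88% of all genes), and 6 lay higher again at day 30 than at day 20 (1.37% of all genes). The median day 30 minus day 10 difference was 6.62 over the 9 genes and -0.027 over all genes, on the log2 scale. The median day 20 minus day 10 difference was 3.72 over the 9 genes and -0.033 over all genes. Because this contrast was known when the genes were chosen, nothing is read from these counts. Kera met none of these criteria, Omd did not meet the one for day 20 against day 10, and Lum and Bgn did not meet the one for day 30 against day 20. In bulk RNA, fewer cells of a type and less RNA per cell cannot be told apart, nor can more cells and more RNA per cell.

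**Figure D1:**
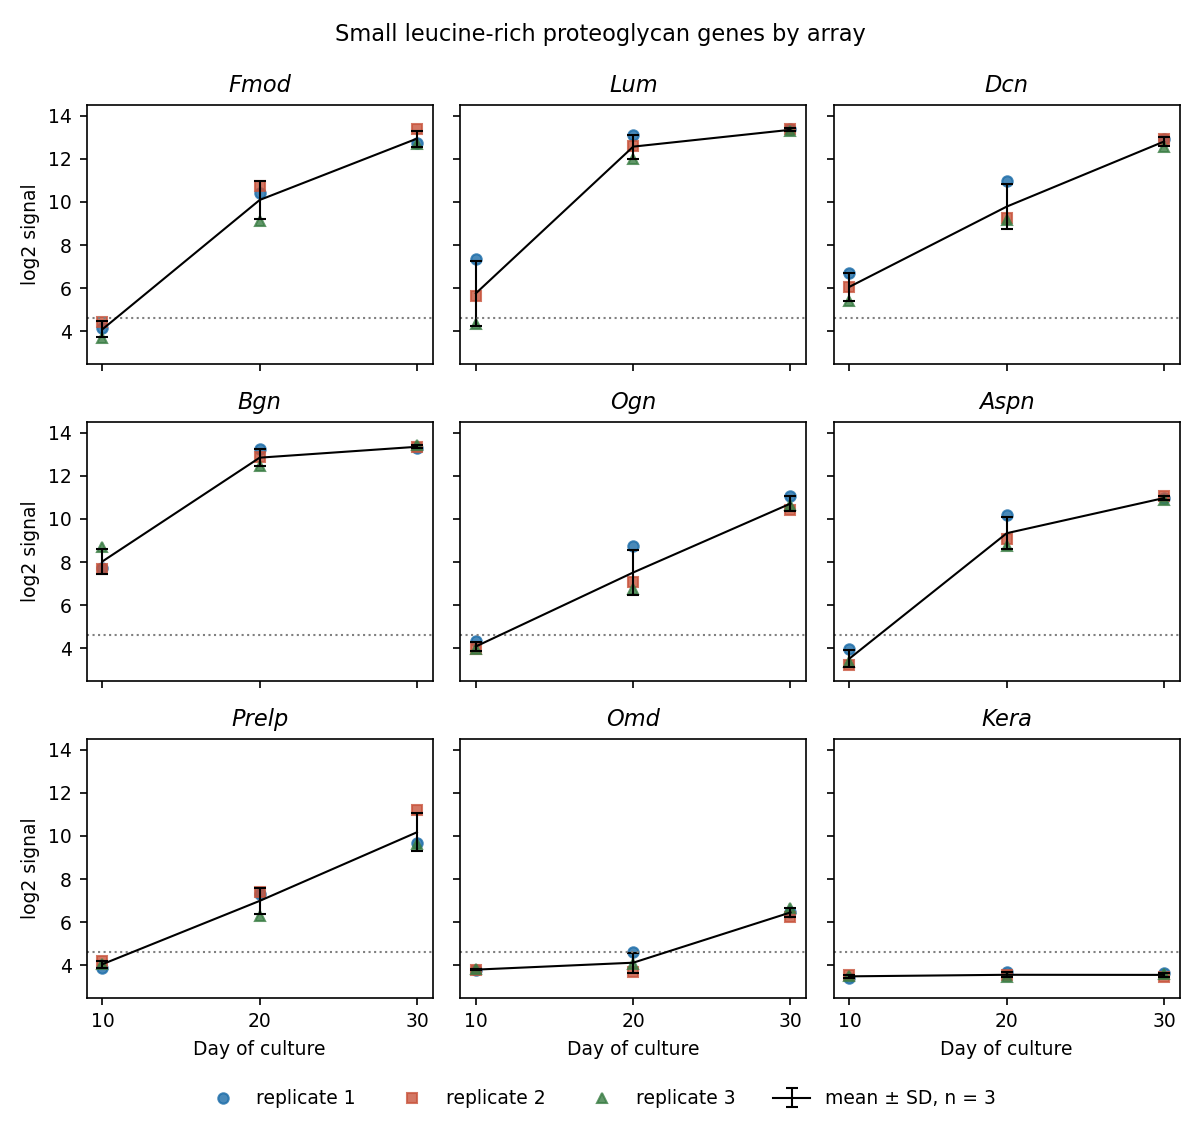
Log2 signal (vertical axis) of each of the 9 small leucine-rich proteoglycan genes on each array, by day of differentiation (horizontal axis). Points are single arrays, 3 per day, and the black line joins the day means, with bars showing the SD of the 3 arrays. The dotted line marks the lower quartile of all genes. Signals climb with day for every gene but Kera, which stays between 3.43 and 3.68, and Omd lies near its day 10 level at day 20.

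Among the class I genes, Dcn encodes decorin, which carries a single chondroitin or dermatan sulfate chain and binds both collagen and TGF-beta. Its log2 signals were 6.70, 6.06 and 5.43 at day 10, 10.97, 9.23 and 9.14 at day 20, and 12.92, 12.90 and 12.56 at day 30. The days did not overlap. The day 30 minus day 10 difference was 6.73 (SE 0.50), and it was split into 3.72 before day 20 and 3.01 after it. A different Dcn probe set was dim, averaging 5.52 ± 0.62 at day 30 and 4.23 ± 0.086 at day 10 (SD, n = 3 each), a difference of 1.29. On this dim probe set the signal gained 0.10 by day 20 and 1.18 after it. The probe sets of Dcn thus differ in the size and the timing of the change.

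Bgn encodes biglycan, a close relative of decorin that carries chondroitin or dermatan sulfate chains and, when released from matrix, can signal through Toll-like receptors. The Bgn arrays read, on the log2 scale, 7.71, 7.68 and 8.70 at day 10, 13.22, 12.85 and 12.45 at day 20, and 13.28, 13.33 and 13.41 at day 30. Day 20 and day 30 both lay far above day 10, and the gap between day 20 and day 30 was narrow. Day 30 minus day 10 came to 5.31 (SE 0.29), of which 4.81 had accrued by day 20, or 90.5% of the log2 difference. The other 2 Bgn probe sets gave 5.73 and 5.96.

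Aspn encodes asporin, named for its stretch of aspartate residues, which binds collagen and TGF-beta. On the log2 scale Aspn read 3.97, 3.24 and 3.38 at day 10, 10.19, 9.09 and 8.74 at day 20, and 10.97, 11.07 and 10.86 at day 30. The days did not overlap, and every day 10 array lay below the lower quartile of all genes on its array, which ran from 4.58 to 4.66. Between day 30 and day 10 the difference was 7.44 (SE 0.35), with 78.1% of it reached by day 20, and the second probe set gave 7.12.

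In class II, Fmod encodes fibromodulin, which binds fibrillar collagen and steers its crosslinking by lysyl oxidase. Fmod signals on the log2 scale were 4.17, 4.43 and 3.69 at day 10, 10.43, 10.73 and 9.10 at day 20, and 12.74, 13.36 and 12.69 at day 30. This probe set lay below the lower quartile of all genes on every day 10 array, whereas another Fmod probe set read 5.11 to 5.57 there, above it. How far such low signals lie above background is not known, so the size of the difference is uncertain for genes that were this dim at day 10. The day 30 minus day 10 difference was 8.83 (SE 0.41), with 67.8% of it reached by day 20. The other 5 Fmod probe sets gave smaller differences, 6.55 to 7.35, and on all 6 the day 30 replicate 2 array was the highest. These 5 gained 3.39 to 4.43 by day 20 and 2.92 to 3.17 after it, against 5.99 and 2.84 on the brightest probe set.

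Lum encodes lumican, the keratan sulfate proteoglycan that spaces collagen fibrils in the transparent cornea and is also found in other connective tissues. On the log2 scale Lum read 7.34, 5.62 and 4.34 at day 10, 13.09, 12.60 and 11.99 at day 20, and 13.38, 13.37 and 13.27 at day 30. The day 10 arrays were far apart (SD 1.51, n = 3), while those of day 30 nearly coincided (SD 0.063, n = 3). Lum differed by 7.57 (SE 0.65) between day 30 and day 10, with 89.7% of it reached by day 20. At day 30 Lum and Bgn read 13.27 to 13.41, and Fmod and Dcn 12.56 to 13.36. The highest signals of any probe set on those arrays were 14.22 to 14.36. At day 20 Lum read 11.99 to 13.09 and Bgn 12.45 to 13.22, where the highest signals were 14.32 to 14.52. Whether the arrays could still resolve a further rise at such levels was not tested.

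Prelp encodes a proline- and arginine-rich protein that binds heparan sulfate and anchors basement membranes to connective tissue. Its log2 signals were 3.89, 4.22 and 4.06 at day 10, 7.30, 7.39 and 6.29 at day 20, and 9.68, 11.19 and 9.64 at day 30. The days did not overlap, and day 30 replicate 2, the array with the low 18S signal, stood well above the other day 30 arrays. The day 30 minus day 10 difference was 6.11 (SE 0.44) and 5.61 without that array. The second Prelp probe set gave 3.74, so the size of the change depends on the probe set.

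Omd encodes osteomodulin, a keratan sulfate proteoglycan best known from mineralised tissue. Omd read, on the log2 scale, 3.78, 3.79 and 3.85 at day 10, 4.61, 3.69 and 4.09 at day 20, and 6.49, 6.24 and 6.64 at day 30. Day 20 overlapped with day 10, and day 30 stood clear of both. Omd was 2.65 (SE 0.22) higher at day 30 than at day 10, of which 12.1% was present by day 20. On the day 10 arrays and day 20 replicates 2 and 3, Omd lay below the lower quartile of all genes, so the share before day 20 is uncertain.

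Kera encodes keratocan, a keratan sulfate proteoglycan that in mice is largely confined to the cornea. Its log2 signals were 3.43, 3.56 and 3.50 at day 10, 3.68, 3.56 and 3.47 at day 20, and 3.63, 3.46 and 3.60 at day 30. All 3 days overlapped, every array lay below the lower quartile of all genes, and the day 30 minus day 10 difference was 0.067 (SE 0.092). An array signal this low does not separate a silent gene from one under the detection limit.

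Ogn, the class III gene, encodes osteoglycin, also called mimecan, which binds collagen and affects fibril formation. The log2 signals of Ogn were 4.33, 3.96 and 3.99 at day 10, 8.72, 7.07 and 6.76 at day 20, and 11.08, 10.39 and 10.66 at day 30. The days did not overlap. Its day 30 minus day 10 difference was 6.62 (SE 0.46), divided nearly evenly into 3.43 before day 20 and 3.19 after it, and the second probe set gave 7.46.

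When the signal was gained was tested gene by gene, and no test compared the timing of one gene with that of another. The measure, which is orthogonal to the day 30 minus day 10 contrast, was the change from day 20 to day 30 minus the change from day 10 to day 20, where a negative value means that the earlier interval held the larger change. By limma with Benjamini-Hochberg adjustment over all 18193 genes, this measure was negative in 2 of the 9 genes and positive in 0, where 0.324% of all genes passed as negative and 0.154% as positive. At an unadjusted p under 0.05 the counts were 4 negative and 1 positive, where 7.62% of all genes were negative and 7.88% positive. The 9 genes were picked with large differences known and most genes changed little, so these shares are no matched comparison, and nothing is read from the counts. Since earlier results of these arrays were known at the choice, the adjusted p-values of single genes are no independent support. Bgn had -4.30 (SE 0.50, 95% interval -5.46 to -3.15, adjusted p = 0.0182). Aspn had -4.18 (SE 0.61, 95% interval -5.57 to -2.78, adjusted p = 0.0376). In both genes all 3 day 20 arrays lay closer to the day 30 mean than to the day 10 mean. Both calls depended on single arrays. That of Bgn was lost without any 1 of the day 20 arrays or day 30 replicates 1 or 3, with values from -4.69 to -3.92 over all single omissions and an adjusted p of up to 0.11. That of Aspn was lost on omitting day 10 replicate 2, either of day 20 replicates 2 and 3, or any 1 of the day 30 arrays, with values from -4.77 to -3.33 and an adjusted p of up to 0.136.

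Lum had the most negative value of the 9 genes, -6.01 (SE 1.13), but with the wide spread at day 10 it did not pass (adjusted p = 0.0719), and it did pass without day 10 replicate 1 (adjusted p = 0.0146) or day 10 replicate 3 (adjusted p = 0.0129). Fmod had -3.15 (SE 0.72, adjusted p = 0.114), passing without day 10 replicate 3 at an adjusted p of 0.049, while the mean of its 6 probe sets gave -1.15 (adjusted p = 0.44). Omd was the only one of the 9 whose 95% interval lay above 0, with an estimate of 2.01 (SE 0.37, 95% interval 1.15 to 2.86). It missed the threshold over all genes (adjusted p = 0.0714) and passed it without day 10 replicate 3 (adjusted p = 0.028) or day 20 replicate 1 (adjusted p = 0.0414). Because Omd was dim at day 10 and on day 20 replicates 2 and 3, the size of its earlier change, and so of this estimate, is uncertain. Dcn, Ogn and Prelp had estimates near 0, at -0.70, -0.23 and 0.24. Their 95% intervals were -2.70 to 1.29 for Dcn, -2.07 to 1.60 for Ogn and -1.52 to 2.01 for Prelp, so sizeable differences either way are compatible with these arrays. Kera had -0.078, with a 95% interval of -0.44 to 0.29. The number of the 9 genes that passed ran from 0 to 5 when 1 array was left out. With day 20 replicates 2 or 3 or day 30 replicates 1 or 3 omitted it was 0, with the second replicate of day 10 or of day 30 omitted it was 1, and omitting day 10 replicate 3 gave 5.

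**Figure D2:**
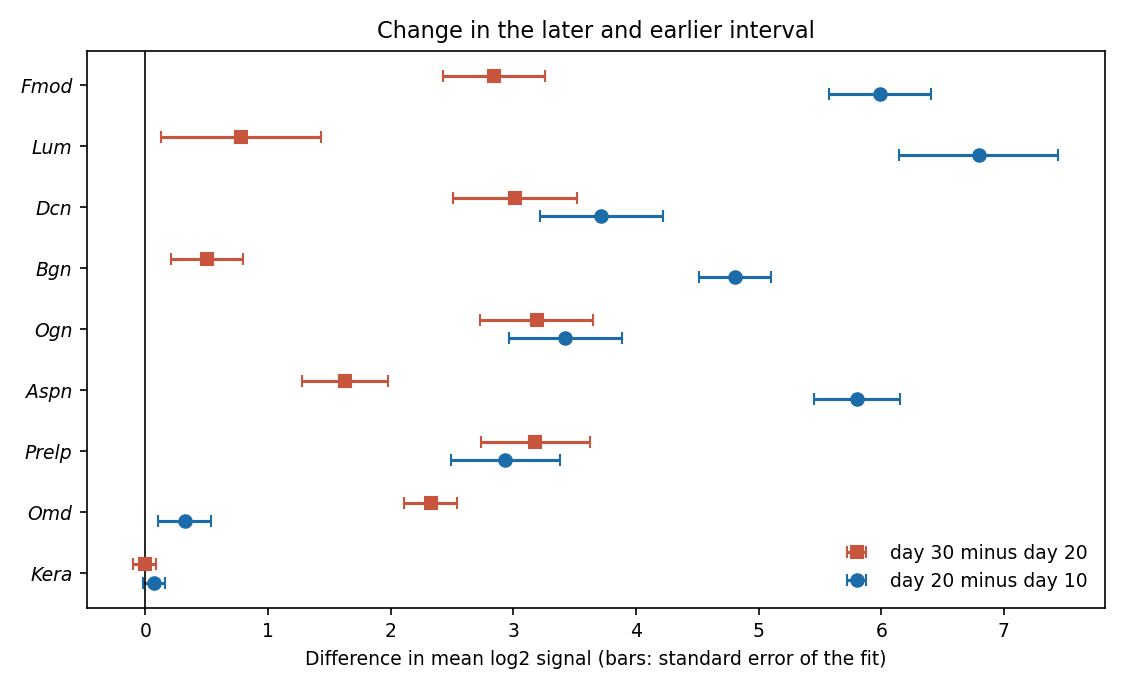
Change in log2 signal of each of the 9 genes over the later interval, day 30 minus day 20 (red squares), drawn above the earlier interval, day 20 minus day 10 (blue circles), with bars of 1 standard error from the fit. The earlier change is far larger than the later one for Lum (6.79 and 0.78) and Bgn (4.81 and 0.50), nearly equal to it for Ogn and Prelp, and smaller than it for Omd (0.32 and 2.33).

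At day 20, replicate 1 was the highest array for 7 of the 9 genes and replicate 3 the lowest for 8. Fibroblast markers ran in the same order there, with means over 10 markers of 7.42, 6.90 and 6.66 in replicates 1, 2 and 3. Cartilage and tendon markers also ran in this order, with means of 6.13, 6.02 and 5.75. Cardiomyocyte markers ran in the opposite order, with means of 11.48, 11.64 and 11.78. At day 10, replicates 1, 2 and 3 were the highest array for 4, 3 and 2 of the 9 genes and each was the lowest for 3, and at day 30 they were the highest for 4, 3 and 2 and the lowest for 1, 3 and 5. At day 10 Lum and Dcn were highest in replicate 1 and lowest in replicate 3, whereas Bgn was highest in replicate 3. Fibroblast markers did not keep the order of the 9 genes on the other days. At day 10 their means in replicates 1, 2 and 3 were 5.33, 6.01 and 5.77, against 5.04, 4.73 and 4.55 for the 9 genes. At day 30 they were 8.26, 8.12 and 7.99, against 10.46, 10.59 and 10.37 for the 9 genes. Cartilage and tendon markers read 4.86, 4.72 and 4.78 at day 10 and 7.26, 7.40 and 6.93 at day 30. Cardiomyocyte markers read 10.63, 11.13 and 11.52 at day 10 and 11.74, 11.79 and 11.68 at day 30. Both lists thus kept the order of the 9 genes at day 30 and not at day 10. The day 10 means of 7 epicardial markers were 5.79, 5.01 and 4.28 in replicates 1, 2 and 3, and those of 7 endothelial markers were 4.78, 5.57 and 6.40. The part of these cell types in the array differences was not tested.

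Most genes of the family lie beside each other, which allows each to be set against its neighbours on the chromosome. In the RefSeq order of assembly GRCm38.p6, Optc, Prelp and Fmod are adjacent on chromosome 1, Dcn, Lum, Kera and Epyc on chromosome 10, and Ecm2, Aspn, Omd and Ogn on chromosome 13, whereas Bgn lies apart on chromosome X. The comparison with neighbours was chosen after values had been seen. On chromosome 10, Kera, with a day 30 minus day 10 difference of 0.067, sits between Lum, with 7.57, and Epyc. Epyc, the epiphycan gene of cartilage, averaged 4.54 at day 30 and 3.55 at day 10 and rose by 0.99 (adjusted p = 0.00179). On chromosome 13, Omd, with 2.65, sits between Aspn, with 7.44, and Ogn, with 6.62. Ecm2 on the far side of Aspn had -0.093 (adjusted p = 0.485), although the mean of its probe sets gave 0.36 (adjusted p = 0.0214). On chromosome 1, Optc, the opticin gene known from the eye, had -0.045 (adjusted p = 0.796) beside Prelp with 6.11 and Fmod with 8.83. Each block thus held genes with small and with large differences.

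The measured genes just outside the blocks had day 30 minus day 10 differences between -1.08 and 1.29. Chit1, on the outer side of Btg2, rose by 0.49 (adjusted p = 0.0072), and Btg2 itself, the neighbour of Fmod, had 1.29 (adjusted p = 0.0529), passing without day 30 replicate 1 (adjusted p = 0.0098). Btg1, near Dcn, rose by 1.25 (adjusted p = 0.005). Nol8, beside Ogn, fell by 0.93 (adjusted p = 0.0345), a call that was lost without day 10 replicates 1 or 2 or day 30 replicates 2 or 3. The neighbours of Bgn, Haus7 with -0.74 (adjusted p = 0.0797) and Atp2b3 with 0.066 (adjusted p = 0.759), did not pass, and Haus7 passed without day 10 replicate 3 (adjusted p = 0.0058).

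**Figure D3:**
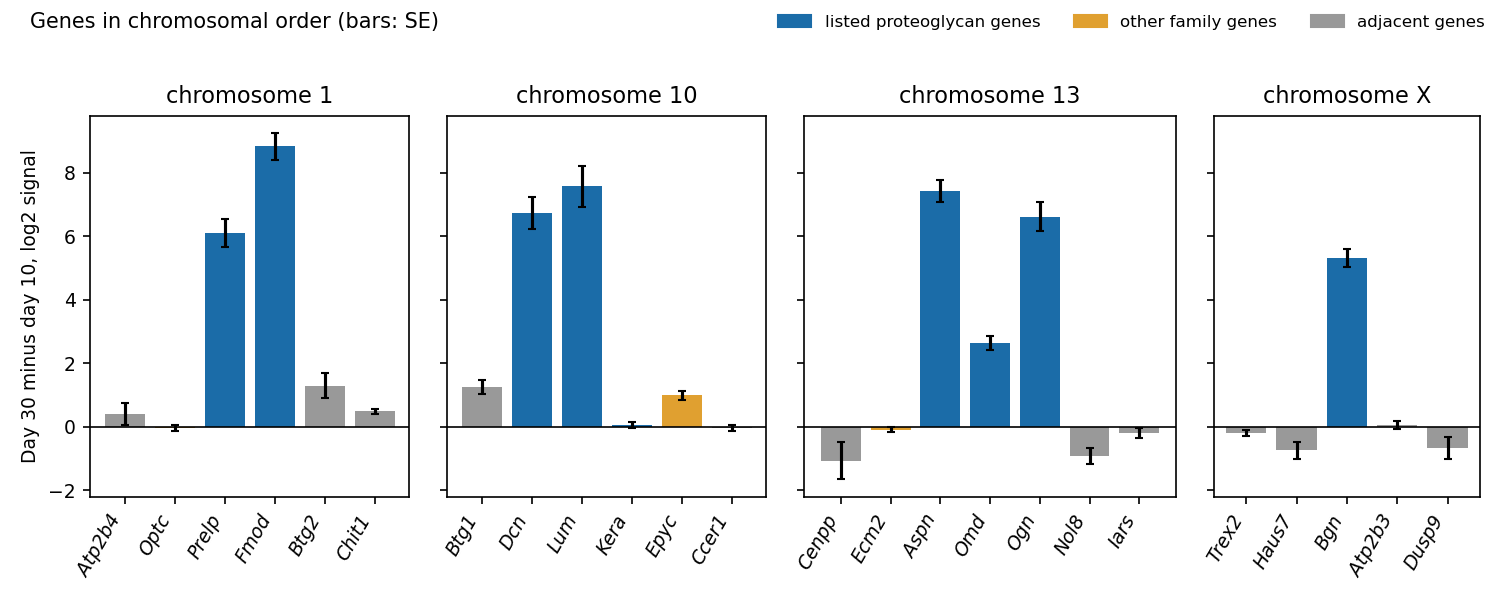
Day 30 minus day 10 difference in log2 signal (vertical axis) of the family genes and their neighbours, in chromosomal order without distances, with bars of 1 standard error. The 9 genes studied, other family genes and unrelated neighbours are drawn in different colours. Kera lies near 0 next to Lum, and Omd at 2.65 stands between Aspn and Ogn.

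The promoter windows of 4 genes are printed because these genes stood out above: Fmod with 8.83 in its brightest probe set, though the mean of its probe sets, 7.21, lay below the 7.57 of Lum and the 7.28 of Aspn taken in that way, Aspn and Omd as neighbours on chromosome 13, and Kera with overlapping days. The windows run from 250 bases before to 50 bases after the annotated start, on the plus strand, and come from RefSeq on GRCm38.p6, where 7 of the 9 genes had an entry, all but Lum and Dcn. Their positions are chr1:134037004-134037303 for Fmod, chr13:49544193-49544492 for Aspn, chr13:49582212-49582511 for Omd and chr10:97606955-97607254 for Kera. Capitals mark matches to TATAAA and to CCAAT on either strand, and to TGANTCA, which occurs in none of them.
Fmod: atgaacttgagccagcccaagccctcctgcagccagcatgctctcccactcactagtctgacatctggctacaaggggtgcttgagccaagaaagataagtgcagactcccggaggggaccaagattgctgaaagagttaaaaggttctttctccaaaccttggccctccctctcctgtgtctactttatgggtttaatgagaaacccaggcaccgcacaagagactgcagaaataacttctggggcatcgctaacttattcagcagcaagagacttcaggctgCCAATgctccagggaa
Aspn: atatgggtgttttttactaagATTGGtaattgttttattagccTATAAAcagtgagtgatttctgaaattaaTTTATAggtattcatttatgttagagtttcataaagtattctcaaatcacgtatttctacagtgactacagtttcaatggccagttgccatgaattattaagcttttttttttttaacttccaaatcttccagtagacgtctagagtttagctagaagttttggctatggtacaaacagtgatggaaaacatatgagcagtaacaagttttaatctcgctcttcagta
Omd: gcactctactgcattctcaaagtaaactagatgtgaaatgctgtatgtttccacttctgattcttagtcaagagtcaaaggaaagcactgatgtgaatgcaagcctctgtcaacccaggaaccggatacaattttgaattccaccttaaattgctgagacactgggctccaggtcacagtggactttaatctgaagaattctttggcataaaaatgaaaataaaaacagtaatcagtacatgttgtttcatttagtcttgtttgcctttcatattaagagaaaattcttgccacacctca
Kera: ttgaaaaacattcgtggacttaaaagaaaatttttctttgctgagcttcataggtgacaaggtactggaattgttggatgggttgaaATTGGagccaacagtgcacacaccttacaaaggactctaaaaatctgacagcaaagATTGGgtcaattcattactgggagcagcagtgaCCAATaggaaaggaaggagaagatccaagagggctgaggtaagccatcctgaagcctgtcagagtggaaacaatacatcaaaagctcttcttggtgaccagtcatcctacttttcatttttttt

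The TATA box letters TATAAA, read on both strands, were found in 2 of the 7 windows, those of Aspn and Ogn, and in 13.6% of all 32851 promoter windows of this length. In Aspn the matches began 207 and 178 bases before the start, and in Ogn the matches on the opposite strands overlap. The CCAAT box was found in 4 of 7, namely Fmod, Aspn, Prelp and Kera, and in 37.4% of all windows. Kera held 3 matches to CCAAT, at 163, 107 and 74 bases before the start, so it shares this motif with genes whose signal was higher at day 30. The GC box letters GGGCGG were found only in the Bgn window of the 7, and in 35.7% of all windows, and the AP-1 motif TGANTCA in 0 of 7, and in 7.81% of all windows. The SMAD motif CAGACA was found in the Prelp window of the 7, and in 21.0% of all windows. The E-box CANNTG was found in 5 of 7 windows, all but those of Omd and Kera, and in 72.3% of all windows. GC content ran from 31.0% in Aspn to 63.7% in Bgn, against a median of 52.7% over all windows. These matches are a description of letters, not of binding.

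Genes that make, modify, bind or cut these proteoglycans were grouped in 10 lists with 127 genes, of which 121 were measured, none of them among the 9. The lists were chosen with earlier results of these data known. The shares of all genes beside the counts are thus no matched comparison, and nothing is read from the counts. Between day 30 and day 10, 56 of the 121 rose and 5 fell, where 11.2% of all genes rose and 9.92% fell, and the median difference was 0.71, against -0.027 over all genes. Between day 20 and day 10, 32 rose and 0 fell by limma (7.3% and 6.69% of all genes), and at an unadjusted p under 0.05 the counts were 51 and 6 (14.2% and 15.1% of all genes). Between day 30 and day 20, 4 rose and 1 fell (0.291% and 0.044% of all genes). The last count was 0 without day 10 replicate 2 or day 20 replicates 2 or 3, 2 without replicate 1 of any day, and 1 without day 30 replicate 2. The genes behind it, outside the naming rule and named after their values were seen, were Epyc (0.89), Col5a3 (1.66), Col14a1 (2.41) and Tlr4 (0.91), which rose, and Adamts3, which fell by 0.95.

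Among the collagens that the proteoglycans bind, all 14 measured collagen partners rose at day 30 against day 10 (11.2% of all genes), with a median difference of 3.64. Col1a1, a chain of the main fibrillar collagen, averaged 13.13 ± 0.43 at day 30 and 6.85 ± 0.71 at day 10 (SD, n = 3 each), a rise of 6.28 (SE 0.43, adjusted p = 0.00013). Col6a3, of the microfibrillar collagen that binds decorin and biglycan, rose by 6.12 (adjusted p = 3.46e-05), Col5a2, of the collagen that starts fibrils, by 3.90 (adjusted p = 0.000107), and Col14a1, a fibril-associated collagen, by 4.71 (adjusted p = 3.15e-05). In timing, Col6a3 had -5.39 (adjusted p = 0.0135) and Col5a2 -2.78 (adjusted p = 0.0477) in the later minus the earlier change, whereas Col14a1 had 0.11 (adjusted p = 0.93). By limma this measure was negative in 5 of the 121 related genes and positive in 0 (0.324% and 0.154% of all genes). Nothing is read from these counts. The others were Lox, given below, and, named after their values were seen, Spock3 (-3.58, adjusted p = 0.0352) and Adamts3 (-2.49, adjusted p = 0.0135). These 5 calls were not recomputed with an array left out.

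Of 13 measured genes for collagen processing and crosslinking, 8 rose and 0 fell by limma (11.2% and 9.92% of all genes). At an unadjusted p under 0.05 the counts were 9 and 0 (16.9% and 17.3% of all genes). Lox, the lysyl oxidase that fibromodulin is known to bind, rose by 6.83 (adjusted p = 0.000106), with a later minus earlier change of -6.26 (adjusted p = 0.0218). Plod1, a lysyl hydroxylase, rose by 2.07 (adjusted p = 0.00547), Loxl4 by 0.52 (adjusted p = 0.00657) and Plod3 by 0.51 (adjusted p = 0.0106). Of 7 proteases known to cut family members, 5 rose, among them the aggrecanase Adamts5 by 4.47 (adjusted p = 0.000915), the gelatinase Mmp2 by 2.69 (adjusted p = 0.002), its activator Mmp14 by 2.12 (adjusted p = 0.0033) and Adamts1 by 1.76 (adjusted p = 0.00208).

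The lists of enzymes and donors for the sugar chains had median differences between 0.081 and 0.67. Their counts stand beside the 11.2% of all genes that rose and the 9.92% that fell. Of 5 measured enzymes of the linkage region, which starts the chain on the protein, 2 rose: B4galt7 by 0.75 (adjusted p = 0.023) and Fam20b by 0.39 (adjusted p = 0.0422). These calls were lost on leaving out any 1 of 4 arrays for B4galt7 and any 1 of 7 for Fam20b. Xylt2 had 0.081 (adjusted p = 0.788) and B3gat3 0.053 (adjusted p = 0.801). Of 16 enzymes for chondroitin and dermatan sulfate, 6 rose and 1 fell, with Dsel, a dermatan sulfate epimerase, at 1.49 (adjusted p = 0.000635), the chain-starting Csgalnact2 at 1.18 (adjusted p = 0.00167) and Csgalnact1 at 1.78 (adjusted p = 0.0043), and the dermatan sulfotransferase Chst14 at 0.69 (adjusted p = 0.0127). Of 7 enzymes for keratan sulfate, the chain carried by fibromodulin and lumican, 2 rose and 1 fell. Chst2, a sulfotransferase, rose by 1.75 (adjusted p = 0.00923), and B4galt1, a galactosyltransferase, rose by 0.81 (adjusted p = 0.0217), a call lost without day 10 replicate 2 or day 30 replicates 2 or 3. B4galt4, another galactosyltransferase, fell by 0.66 (adjusted p = 0.00679), and B3gnt2 had 0.57 (adjusted p = 0.125), passing without day 10 replicate 1 (adjusted p = 0.0274). Of 8 genes that supply sulfate and sugar donors, 1 rose, 12.5% of the list, near the 11.2% of all genes. It was Papss2, which makes the sulfate donor, with 1.75 (adjusted p = 0.0393), a call lost on leaving out any 1 of 6 arrays. Slc35b2 had 0.27 (adjusted p = 0.0915), Uxs1 0.76 (adjusted p = 0.207) and Slc26a2 0.093 (adjusted p = 0.753).

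Of the 7 other measured family genes, 3 rose: Epyc, Chadl by 1.70 (adjusted p = 0.00515) and Podn by 0.65 (adjusted p = 0.0095), while Chad had 0.30 (adjusted p = 0.359). The median of this list was 0.30. Of all genes, 11.2% rose and 9.92% fell. Of 23 proteoglycans of other families, 9 rose and 1 fell, led by the glypican Gpc1 with 2.01 (adjusted p = 0.000216), the syndecans Sdc2 with 1.89 (adjusted p = 0.000216) and Sdc4 with 2.57 (adjusted p = 0.000529), and the cartilage proteoglycan Acan with 4.52 (adjusted p = 0.000301). Of 21 ligands and receptors that bind family members, 6 rose and 2 fell. The Toll-like receptors Tlr4 and Tlr2, through which soluble biglycan signals, rose by 1.70 (adjusted p = 0.000129) and 1.80 (adjusted p = 0.002), the TGF-beta receptor Tgfbr2 by 2.42 (adjusted p = 0.0027) and P2rx4, an ATP-gated channel, by 0.77 (adjusted p = 0.00527). The 5 related genes that fell, listed together after their values were seen, were B4galt4, Gpc2 (-1.44, adjusted p = 0.00389), Tgfbr1 (-0.90, adjusted p = 0.00552), Kdr (-1.13, adjusted p = 0.0165) and Chst13 (-0.37, adjusted p = 0.0377). The call of Kdr was lost without day 10 replicate 2 or day 30 replicate 1, and that of Chst13 on leaving out any 1 of 7 arrays.

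**Figure D4:**
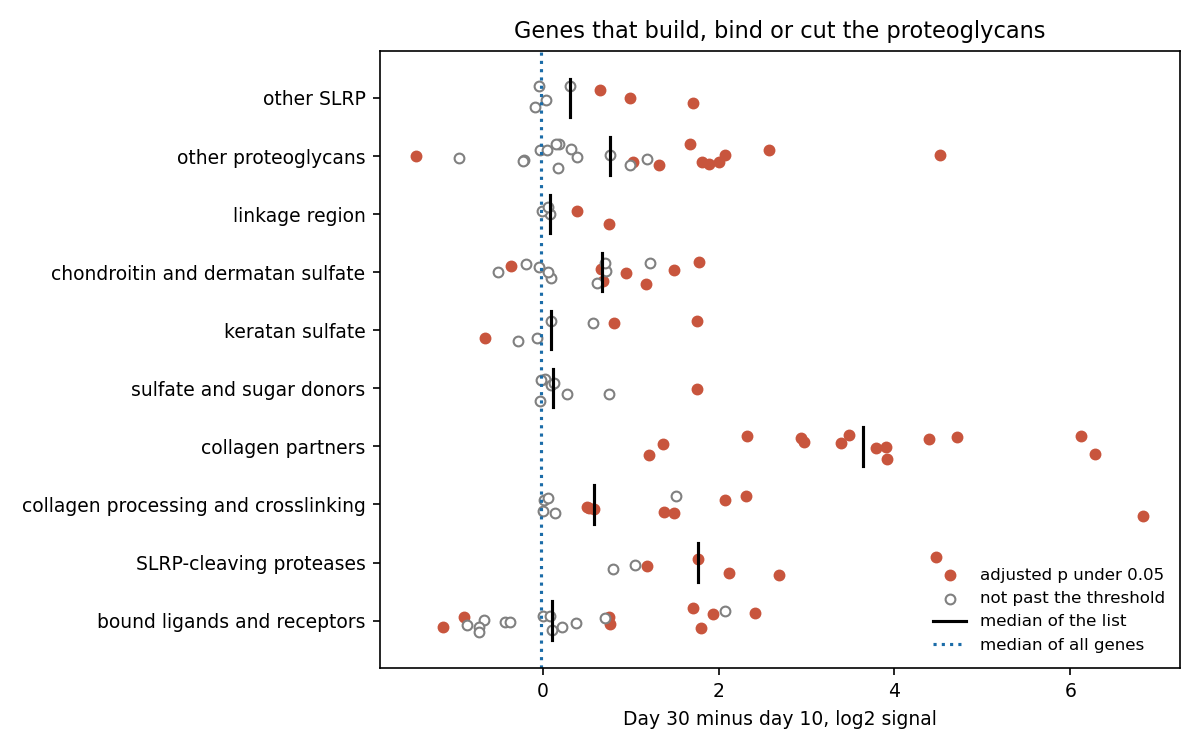
Day 30 minus day 10 difference in log2 signal (horizontal axis) of each measured gene in the 10 related lists. Filled points passed the test (adjusted p under 0.05), black bars are list medians and the dotted line is the median of all genes. Collagen partners are all filled with a median of 3.64, while the medians of the linkage region and keratan sulfate enzymes are 0.081 and 0.089.

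Markers of other cell types were read beside these results. Their lists too were chosen with earlier results of these data known. Of all genes, 11.2% rose and 9.92% fell. Of 10 fibroblast markers 7 rose, with examples in Thy1 by 3.69 (adjusted p = 0.00014), the matrix gene Dpt by 5.55 (adjusted p = 0.00084), Postn by 4.59 (adjusted p = 0.000954) and the transcription factor Prrx1 by 4.36 (adjusted p = 0.00129). The summed linear signal of the 10 was 9521 to 12329 on day 30 arrays and 871 to 1406 on day 10 arrays. Of 10 cartilage and tendon markers 7 rose, among them Comp by 7.71 (adjusted p = 1.53e-05), Col2a1 by 4.40 (adjusted p = 0.00517) and the tendon transcription factor Scx by 1.31 (adjusted p = 0.00749), with Acan as above. Their summed signal was 9024 to 12140 at day 30 and 354 to 542 at day 10, but Matn1 and Tnmd were below the lower quartile of all genes on all 9 arrays. Acan, Col2a1 and Kdr stand in a related list as well as a marker list.

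Of 5 measured bone markers 1 rose, where 11.2% of all genes rose and 9.92% fell. It was Ibsp, with 0.47 (adjusted p = 0.0447), a call lost on leaving out any 1 of 8 arrays. Dmp1, with 0.30 (adjusted p = 0.0511), and Phex, with 0.095 (adjusted p = 0.493), were below the lower quartile on all arrays, and Sp7 had 0.65 (adjusted p = 0.107), passing without day 30 replicate 1 (adjusted p = 0.0447). The bone list summed to 124 to 230 at day 30 and 115 to 126 at day 10. Of 7 smooth muscle markers 1 rose and 3 fell, with Cnn1 at -2.75 (adjusted p = 0.00419), Acta2 at -1.04 (adjusted p = 0.0145), Synpo2 at -1.59 (adjusted p = 0.02) and Smtn at 1.16 (adjusted p = 0.023), and the list summed to 7056 to 14548 at day 30 and 20647 to 26769 at day 10. The calls of Synpo2 and Smtn were lost without day 10 replicate 2 or day 30 replicates 1 or 3. Of 7 endothelial markers Kdr fell and 0 rose by limma. Esam had -0.67 (adjusted p = 0.0976), Tie1 -0.93 (adjusted p = 0.105) and Pecam1 -0.89 (adjusted p = 0.143). Without day 10 replicate 1 each of them passed, at adjusted p of 0.0424, 0.0339 and 0.00842. At an unadjusted p under 0.05, 4 fell and 0 rose (17.3% and 16.9% of all genes). The endothelial list had sums of 205 to 304 at day 30 and 248 to 665 at day 10. Of 7 epicardial markers 0 passed by limma (1 at an unadjusted p under 0.05), with sums of 244 to 670 at day 30 and 140 to 544 at day 10. The mesothelial gene Msln had 1.85 (adjusted p = 0.0557), passing without day 30 replicate 3 (adjusted p = 0.0173). Upk3b had 1.24 (adjusted p = 0.314), Aldh1a2 -0.34 (adjusted p = 0.231) and Lrrn4 -0.95 (adjusted p = 0.363). The median difference of the epicardial list was -0.005. The part of any of these cell types in the proteoglycan signals was not tested.

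**Figure D5:**
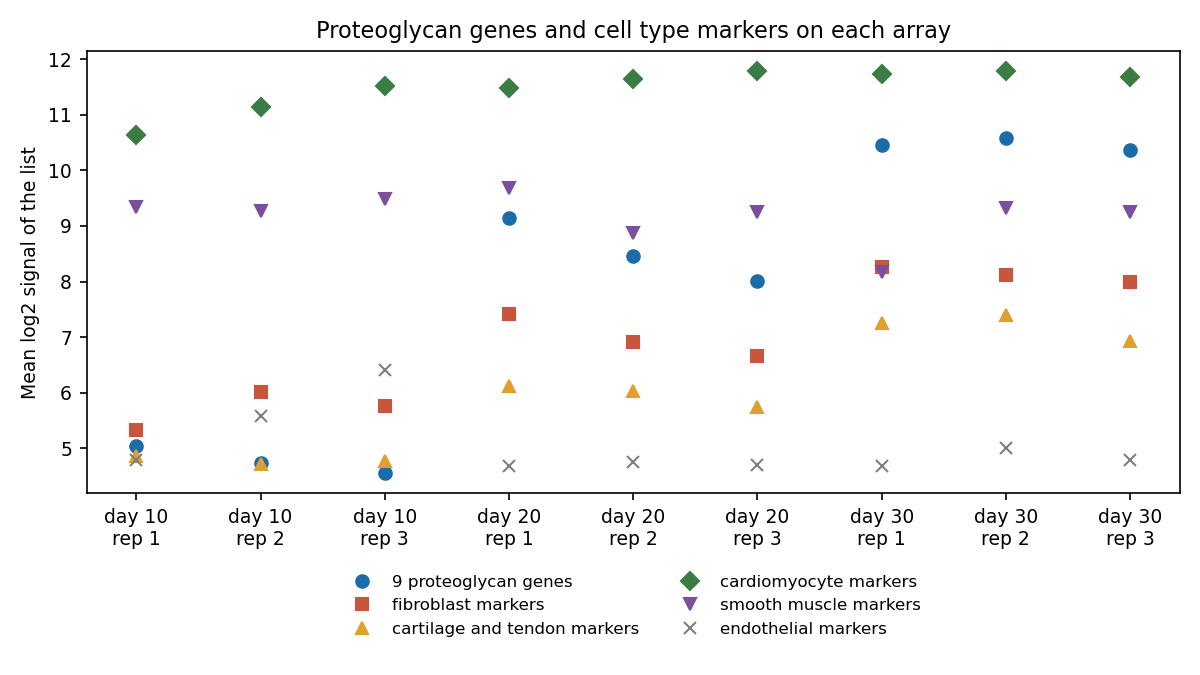
Mean log2 signal (vertical axis) of the 9 genes and of the marker lists drawn, on each array by day (horizontal axis). The lists drawn are fibroblast, cartilage and tendon, cardiomyocyte, smooth muscle and endothelial markers. The means of the 9 genes lie at 4.55 to 5.04 at day 10, 8.0 to 9.13 at day 20 and 10.37 to 10.59 at day 30, fibroblast and cartilage and tendon markers climb with them, and cardiomyocyte markers stay at or above 10.63.

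Across all genes, the profiles nearest to that of Fmod over the 9 arrays were found by the root mean square difference of log2 signals, after each gene was centred on its own mean. The 5 nearest genes outside the 9 were Comp (0.55), Penk (0.73), Ecrg4 (0.78), Abi3bp (0.83) and Lox (1.19). Among the 9 genes, Aspn was nearest to Fmod (0.78) and Kera farthest (3.68). The 5 genes nearest to the mean profile of the 9 were Pi15 (0.45), Cd34 (0.50), Rarres1 (0.50), S100a4 (0.52) and Thbs2 (0.53), with day 30 minus day 10 differences between 4.79 and 5.84. These distances describe the 9 arrays, which share their days, and carry no test.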

How the data were processed

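Total RNA was taken up in TRIzol and labelled with biotin by a 3 prime amplification kit, per the labels' protocols, and 9 one-colour arrays were analysed, 3 for each of days 10, 20 and 30. Each probe set has 1 value per array in the table the authors deposited, taken here as a log2 signal. How it was normalized, and the log base, were not given in the sources used here, so base 2 was inferred from the range, and the values were used unchanged. Without scanner files, background was not judged per probe, and the number of arrays limits the precision.

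Of 45101 probe sets, 64 were controls, 34945 others had 1 symbol in the platform annotation and 932 had several. Of the 34945, 34741 were found in the RefSeq table by gene identifier and 0 symbols differed. Keeping the brightest probe set of each gene left 18193 genes, with no filter. In R 4.3.3, limma 3.58.1 fitted a mean per day over the 9 arrays, and its eBayes step had 2.18 prior degrees of freedom beside 6 residual. Tests are two-sided, Benjamini-Hochberg adjusted over all genes, with a threshold of 0.05. Simulated data, with independent noise per gene and shifts planted at day 30 only, were used to check the code. They hold no effect shared by the genes of an array, so they do not show how the tests behave on these arrays. The members and lists were chosen with earlier results of these data known.

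All 9 members are named, as are up to 4 genes per list in order of adjusted p for day 30 minus day 10, and the 5 genes nearest in profile to Fmod and to the members' mean. Alternatives were the mean of a gene's probe sets, all probe sets, quantile normalization, median centring, a filter on dim genes, array weights, a trended robust prior, the replicate number as a block, only the days compared, and leaving out each array. Promoter sequences are from RefSeq (GRCm38.p6); the files name no build, so no other coordinates are given.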

Additional observations from a re-analysis of the deposited data

Results flagged for a closer look

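In 2 of the 9 genes the change in the later interval, day 30 minus day 20, differed from that in the earlier interval, day 20 minus day 10, by a test of the difference itself. The genes were chosen with earlier results of these arrays known, so these calls are no independent support. The later minus the earlier change was -4.30 in Bgn (changes of 0.50 and 4.81) and -4.18 in Aspn (changes of 1.63 and 5.81), on the log2 scale, and day 20 lay above day 10 on all 3 arrays in both genes. Both calls were lost when some single arrays were left out, as given with the results. Bgn stood at 13.28 to 13.41 on the day 30 arrays, whose highest signals of any probe set were 14.22 to 14.36, whereas Aspn stood at 10.86 to 11.07.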

How the results depend on the processing

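The count of 8 members with higher day 30 than day 10 arrays was 8 under all 13 alternatives in which it was recomputed. The count of members whose intervals differed (2) was 5 with array weights and 0 without both day 20 replicate 1 and day 30 replicate 2, an omission chosen after seeing the data, and 0 to 5 with 1 array left out. For related genes, the day 30 minus day 10 count (61) ran from 43 to 69 over all alternatives and from 47 to 61 with 1 array left out. The day 20 minus day 10 count (32) was 52 with array weights and 24 to 40 with 1 array left out. The day 30 minus day 20 count (5) was 3 with the mean of probe sets, with all probe sets and with the filter on dim genes, 8 with array weights, 2 with only the 2 days compared, 1 without the 2 arrays named above, and 0 to 6 with 1 array left out. The causes were not tested.

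With a replicate block the counts were 2, 60, 35 and 4, so none moved by more than 1.5 times. Same-numbered arrays of different days had correlations of -0.15 to 0.43 in their deviations from day means, over 0.1 in 3 of 9 pairs. Between days 10 and 20 or 20 and 30, same-numbered pairs had 0.0083 to 0.43 and unlike-numbered pairs -0.46 to 0.24. Between days 10 and 30 they had -0.15 to -0.0019 and -0.10 to 0.13. Whether the numbers pair the samples is thus not settled, and the main fit did not use them.

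Some small estimates turned sign. The later minus the earlier change of Dcn was 0.19 with the mean of probe sets, 0.44 without the 2 arrays, and -1.34 to 0.49 with 1 array left out. Ogn had 0.041 with array weights, 1.13 without the 2 arrays and -0.99 to 0.97 with 1 array left out. Kera had 0.018, 0.087 and -0.18 to 0.034 in the same settings, and Prelp had -0.46 to 0.64 with 1 array left out. In day 30 minus day 10, the mean of probe sets gave -0.026 for Fam20b, -0.048 for B3gat3, -0.0599 for Slc26a2 and 0.36 for Ecm2. With 1 array left out, Xylt2 had -0.055 to 0.23, B3gat3 -0.018 to 0.16 and Slc26a2 -0.054 to 0.29. Over 80 other named genes, 1298 of 1418 alternative values kept direction and side of the threshold, 85 lost the call, 26 gained it and 9 turned sign. How signal over background, or the top of the signal range, limits single genes was not tested.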
